A study of Mus musculus with 42 samples.

Results

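The experiment asked whether bacterial lipopolysaccharide (LPS) changed gene expression differently in synovial fibroblasts labelled as lacking TSG-6 than in wild-type ones. For each gene, the mean of untreated cultures was subtracted from the mean of LPS-treated cultures within each genotype, which gave its LPS response, and the wild-type response was then subtracted from the knockout-labelled one. A negative difference therefore means a lower response in the knockout-labelled cultures. By their titles, 19 of the 42 arrays of the study belonged to it: 5 untreated and 2 LPS-treated wild-type cultures, and 8 untreated and 4 LPS-treated TSG-6 knockout cultures. All came from female BALB/c mice with arthritis raised by immunisation with cartilage proteoglycan and an adjuvant, so both genotypes carried that disease history. Synovial tissue was digested, the adherent cells were grown for up to 6 passages, and after a night in low serum they received LPS at 200 ng/ml or nothing for 12 h. The knockout is described as a deficiency of Tnfaip6, the TSG-6 gene. The titles call the cultures biological replicates but do not tie each to an animal, so p-values measure only the spread between these cultures.

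LPS, a component of the outer membrane of Gram-negative bacteria, is bound by CD14 and MD-2 and signals through Toll-like receptor 4 (TLR4). The adaptors of the receptor switch on NF-kB, which drives genes of chemokines, cytokines and its own inhibitors, and a second branch that drives interferon-stimulated genes. Synovial fibroblasts line the joint and, when activated, release chemokines that draw neutrophils and monocytes. TSG-6 is a secreted protein that binds hyaluronan and is itself induced by inflammatory signals.

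Values are log2 expression relative to the median of the probe set over all 42 arrays, so a value of 0 is that median and not absence, and 1 unit is a doubling. The Tnfaip6 probe set read -0.55, -0.48, -0.32, -0.34 and -0.14 in the untreated wild-type cultures and 0.26 and 0.23 in those with LPS. In the untreated knockout-labelled cultures it had a lowest value of -0.41, a median of -0.10 and a highest of 0.25, and with LPS it read 0.46, 0.49, -0.09 and 0.17. The targeted gene was therefore not lower in the knockout-labelled arrays. The position of its probes relative to the disrupted stretch is unstated in the labels, so this reading checks no label, and the cultures carry the name knockout-labelled below. The difference in the response of Tnfaip6 was -0.24 ± 0.28 (SE; 95% interval -0.81 to 0.33; limma adjusted p = 1).

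Several features of the arrays stand beside every result. Within each genotype the arrays were split into a pair of sets, a and b, that the labels do not name. The rule for the split required every condition in both sets. Wild-type set a held untreated cultures 1 to 3 and LPS culture 1, and set b the remaining 3 arrays of these groups. The knockout-labelled sets each held 4 untreated and 2 LPS cultures. A high 18S ribosomal RNA signal marked 6 of the 19 arrays, namely 1 untreated and 1 LPS wild-type culture and 2 of each knockout-labelled group. Markers of endothelial cells, the lining of blood vessels, were far higher in the wild-type arrays. The mean of the 20 markers measured lay between 3.43 and 3.7 in untreated wild-type and between 2.92 and 3.12 in LPS-treated wild-type cultures, against -1.01 to 0.23 and -1 to -0.07 in the knockout-labelled ones. In untreated cultures 19 of the 20 were lower in the knockout-labelled group, by a median of -4.20, and 37.6% of all genes differed between the genotypes. The array means of the 17 macrophage markers stayed between -0.22 and 0.21 in all 4 groups, and those of the 20 fibroblast markers between -0.53 and 0.22. In untreated knockout-labelled cultures 7 of these 20 were higher and 6 lower. Of the 17 macrophage markers 1 was higher and 2 lower there, and under LPS 0 were higher and 3 lower. Cd53, for example, lay between 1.60 and 2.91 in the wild-type arrays of these groups and between -0.81 and 0.29 in the knockout-labelled ones. The 12 chondrocyte and tendon markers also separated the genotypes, with array means of -0.97 to -0.53 in wild-type and -0.03 to 0.32 in knockout-labelled cultures, and 5 of the 12 were higher in untreated knockout-labelled ones. Because values are centred, neither the presence nor the absence of a marker can be read, and the part of these cells in the results below was not tested.

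**Figure D1:**
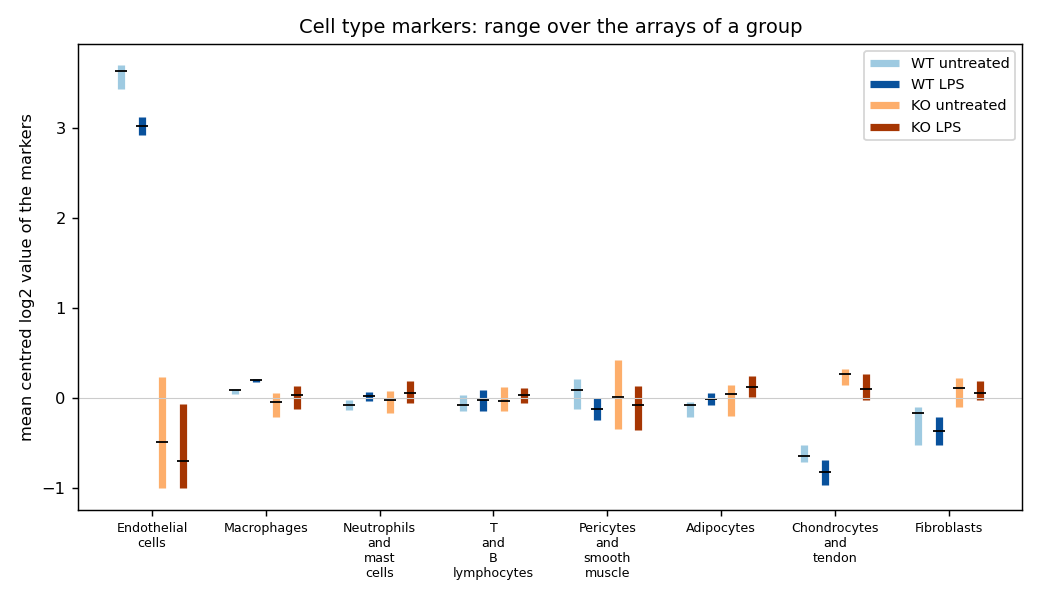
Mean centred log2 value of the measured markers of 8 cell types, with bars from the lowest to the highest array of each of the 4 groups and a tick at the median array. The endothelial markers separate the genotypes, with every wild-type array at 2.92 or above and every knockout-labelled array at 0.23 or below, and the wild-type bar of these markers is lower with LPS.

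The LPS response differed between the genotypes for 39 of 18194 genes at an adjusted p under 0.05 in limma, or 0.214% of the genes tested. Of these, 27 (0.148%) had a lower and 12 (0.066%) a higher response in the knockout-labelled cultures, and 29 of the differences were at least 2-fold. The median difference over all genes was 0.00. Without adjustment, 541 genes had a p under 0.05. Within a genotype, LPS changed 217 genes in the wild-type cultures (134 higher, 83 lower; 1.19% of genes, 0.737% for the rises and 0.456% for the falls) and 326 in the knockout-labelled cultures (177 higher, 149 lower; 1.79%, with 0.973% and 0.819%). In simulated data the response was made to differ 1.5-fold in 67 genes, 2-fold in 67 and 4-fold in 66. The same fit recovered 73.1% of the 2-fold and 26.9% of the 1.5-fold genes, and also called 9 unchanged genes. More genes were changed there than the 39 called here, and recovery in the real arrays was not tested. These shares may therefore be too high for this comparison, and smaller differences would often be missed. The split between lower and higher depended on the scaling: cyclic loess between arrays gave 35 lower and 8 higher, and quantile normalisation of the centred values gave 6 lower and 1 higher, with 5 of the 39 genes among them (Pf4, Lcn2, Abca13, Cxcl1 and Acot1).

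All 27 genes with a lower difference had risen with LPS in the wild-type cultures. In the knockout-labelled cultures 13 of them rose less, 1 (Acot1) fell, and 13 showed no change past the threshold. Among the 12 genes with a higher difference, 11 had fallen in the wild-type cultures and did not pass the test in the knockout-labelled ones, while Col18a1 rose only in the latter by these tests. Over all genes 0.737% rose and 0.456% fell in the wild-type cultures. The wild-type response is part of the difference that chose these genes, so its direction in them is a description. For each of the 39 genes the responses of the 4 knockout-labelled LPS cultures, each taken from its untreated mean, lay wholly on one side of those of both wild-type LPS cultures. Over all genes, 6.15% had every knockout-labelled response below and 6.96% every one above. The genes were called on these same arrays, so the separation is a description and no further support.

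**Figure D2:**
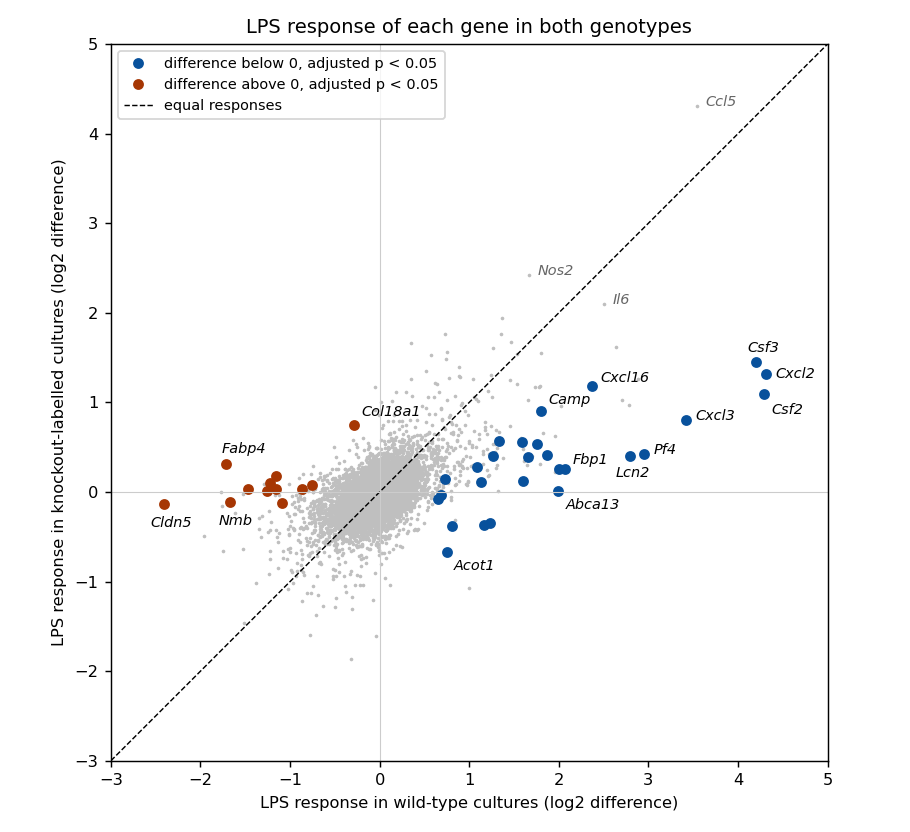
LPS response of each of 18194 genes in wild-type (horizontal axis) and knockout-labelled cultures (vertical axis), as log2 differences of group means, with the 39 genes that passed the test as large points and the dashed line marking equal responses. Csf2, Csf3 and Cxcl2 lie far right and low, with wild-type rises of 4.20 to 4.31 against 1.09 to 1.45, whereas Ccl5, Nos2 and Il6, which did not pass, lie nearer the line.

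Of the 7 measured genes listed as neutrophil-attracting chemokines, 4 rose less in the knockout-labelled cultures, against 0.148% of all genes with a lower difference. The list was written with earlier results of these data known. None of the 7 passed the test in the other direction in limma, and their median difference was -1.45. The genes Cxcl1, Cxcl2 and Cxcl3 encode ligands of the neutrophil receptor CXCR2. The fourth, Pf4, encodes platelet factor 4, a heparin-binding CXC chemokine best known from platelet granules, and it was listed with them although it is not a CXCR2 ligand of that kind. The 4 genes lie in 1 cluster on mouse chromosome 5, where their starts fall within 131.5 kb (GRCm38.p6). Their promoters are shown because these neighbours shared the lower response while differing in the sequence before the start. They were chosen because they passed, so they do not stand for the whole cluster. Listed members that did not pass are given below. Each is the 250 bases upstream of the start in RefSeq, 5′ to 3′ on the plus strand of the gene, with capitals marking matches on either strand to GGG, any 2 bases and TTTCC, a form of the kB site bound by NF-kB. In chromosome order the windows are chr5:90772185-90772434 for Pf4, chr5:90785851-90786100 for Cxcl3, chr5:90890995-90891244 for Cxcl1 and chr5:90903649-90903898 for Cxcl2, all on the plus strand.
Pf4: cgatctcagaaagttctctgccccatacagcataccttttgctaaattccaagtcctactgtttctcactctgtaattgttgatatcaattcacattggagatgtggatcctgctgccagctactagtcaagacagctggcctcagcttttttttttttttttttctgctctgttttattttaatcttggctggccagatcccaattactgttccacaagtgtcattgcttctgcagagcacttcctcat
Cxcl3: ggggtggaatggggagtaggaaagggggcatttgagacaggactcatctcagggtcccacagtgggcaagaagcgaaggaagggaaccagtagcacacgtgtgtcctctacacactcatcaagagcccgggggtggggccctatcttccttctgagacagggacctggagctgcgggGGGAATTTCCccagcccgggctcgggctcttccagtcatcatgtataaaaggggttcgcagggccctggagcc
Cxcl1: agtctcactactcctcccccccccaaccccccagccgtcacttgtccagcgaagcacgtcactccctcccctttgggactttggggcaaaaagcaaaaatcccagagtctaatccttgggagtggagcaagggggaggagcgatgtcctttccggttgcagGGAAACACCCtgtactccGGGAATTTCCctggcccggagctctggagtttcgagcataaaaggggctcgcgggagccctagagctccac
Cxcl2: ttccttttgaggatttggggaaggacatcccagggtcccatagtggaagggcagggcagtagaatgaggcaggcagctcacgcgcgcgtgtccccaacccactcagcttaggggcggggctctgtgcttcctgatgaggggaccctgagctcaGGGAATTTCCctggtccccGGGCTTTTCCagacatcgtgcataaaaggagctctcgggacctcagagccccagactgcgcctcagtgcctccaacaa

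Cxcl1 and Cxcl2 held 2 matches each, Cxcl3 held 1 and Pf4 held 0. GGGAATTTCC occurred in all of the first 3 genes, and Nfkbia, on chromosome 12, held 1 match. Promoters were listed for 30 of the 39 genes, 27 promoters for 22 genes with a lower difference and 9 for 8 genes with a higher one. The motif was in 1.41% of all 32851 RefSeq promoters of this length, in 4 of the 27 (Cxcl1, Cxcl2, Cxcl3 and Nfkbia) and in 0 of the 9. Cxcl1, Cxcl2 and Cxcl3 are related genes of 1 cluster, so their matches are not independent of each other. The outcome depended on the form searched. GGG, any 3 bases and TTCC, which contains the first form, was in 4.65% of all promoters, 4 of the 27 and 1 of the 9. GGG, any 2 bases and TTCC was in 4.98%, 0 of the 27 and 1 of the 9, and GG, any 4 bases and TTCC, the loosest, was in 15.2%, 8 of the 27 and 4 of the 9. A match is a description of letters, and its absence says nothing of binding.

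Cxcl2 read -3.39, -3.27, -3.37, -3.45 and -3.44 in untreated wild-type cultures and 0.71 and 1.15 with LPS. In the knockout-labelled cultures it had a lowest value of -0.94, a median of -0.54 and a highest of -0.13 untreated, and read 0.98, 0.70, 1.00 and 0.38 with LPS. Untreated cultures of the genotypes did not overlap, whereas the LPS-treated ones did. The rise was 4.31 ± 0.18 (19.9-fold) in wild-type and 1.32 ± 0.13 (2.49-fold) in knockout-labelled cultures, a difference of -3.0 ± 0.23 (95% interval -3.46 to -2.53; limma adjusted p = 1.14e-10). Under LPS the knockout-labelled minus wild-type gap was -0.17 (95% interval -0.55 to 0.22; limma adjusted p = 0.634), after a gap of 2.83 without treatment.

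Cxcl3 followed the same course. It read -3.28, -2.81, -2.63, -2.83 and -2.81 in untreated and 0.52 and 0.57 in LPS-treated wild-type cultures, against a range of -0.76 to -0.08 (median -0.45) and then 0.30, 0.53, 0.27 and 0.44 in the knockout-labelled ones. Its difference was -2.62 ± 0.26 (limma adjusted p = 3.4e-08), and its gap under LPS was -0.16 (95% interval -0.60 to 0.27). For Cxcl1 the untreated values were -1.83, -1.45, -1.61, -2.27 and -2.32 in wild-type and -0.35 to 0.03 in knockout-labelled cultures, and the LPS values were 0.00 and -0.05 against 0.40, 0.33, 0.25 and 0.30. Every knockout-labelled value lay above the wild-type ones in both conditions, although the gap under LPS of 0.35 did not pass (limma adjusted p = 0.111), and the difference in response was -1.45 ± 0.19 (limma adjusted p = 1.43e-05).

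Pf4 differed from its neighbours in level. The wild-type cultures read 1.76, 2.27, 2.15, 2.24 and 2.18 untreated and 4.77 and 5.38 with LPS. The knockout-labelled ones ranged from -0.71 to -0.21 (median -0.43) untreated and read 0.17, 0.04, 0.04 and -0.34 with LPS. Every wild-type value thus exceeded every knockout-labelled one in both conditions, and the rises of 2.96 ± 0.16 and 0.42 ± 0.12 differed by -2.53 ± 0.20 (limma adjusted p = 1.14e-10). Pf4 and Abca13 were the genes that passed the test under all 11 alternative settings and with each of the 19 arrays left out in turn, although quantile normalisation reduced their differences to -1.22 and -1.23. The remaining members of the list were Cxcl5, with a difference of -0.90 ± 0.24 (limma adjusted p = 0.207), Ppbp with -0.60 ± 0.85 and Cxcl15 with 0.15 ± 0.30, none of which passed. Quantile normalisation gave -1.05 for Cxcl2 (adjusted p = 1 in limma) and -1.51 for Cxcl3 (0.127), and without the arrays of high 18S signal Cxcl1 gave -1.34 (0.0516).

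**Figure D3:**
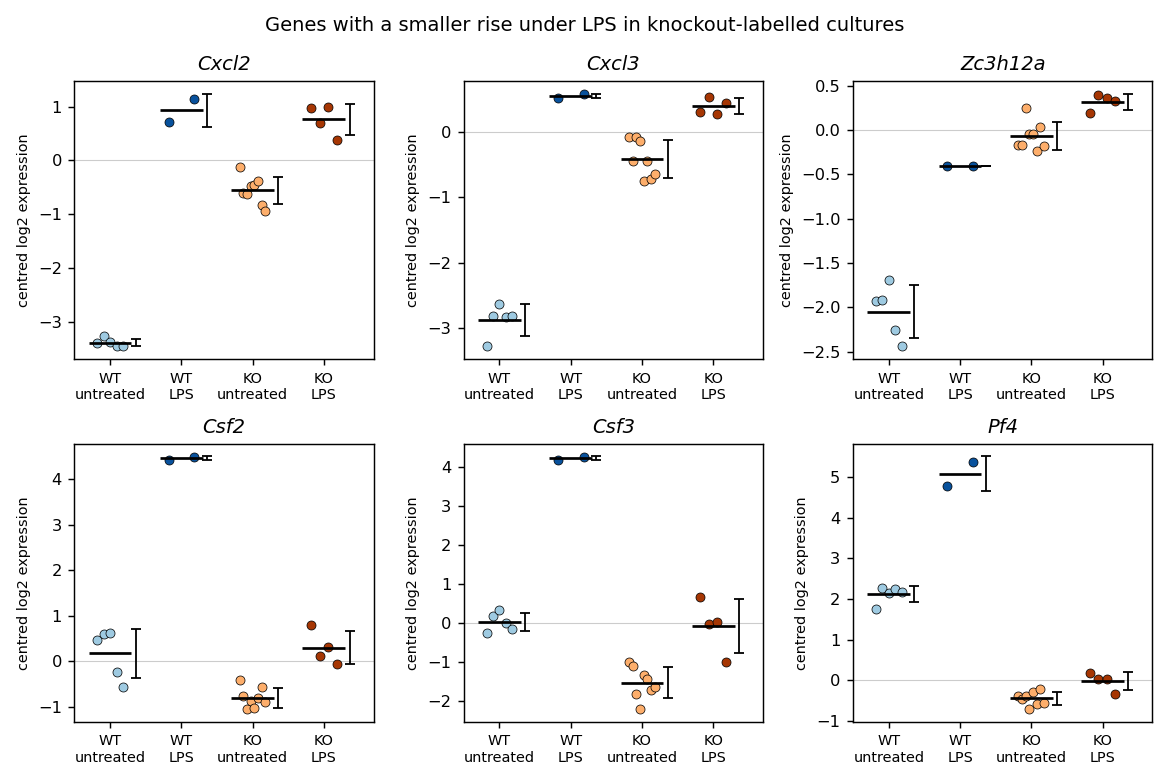
Centred log2 expression of 6 genes in each culture of the 4 groups (points), with the group mean as a horizontal line and ±1 SD as the bar beside it. Cxcl2 and Cxcl3 reach overlapping values under LPS from unequal untreated values, whereas for Csf2, Csf3 and Pf4 the LPS-treated wild-type cultures, at 4.18 or above, stand apart from all other groups.

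Of the 39 differences, the largest was that of a colony-stimulating factor. Csf2 encodes GM-CSF, which promotes macrophages and granulocytes, and Csf3 encodes G-CSF, which promotes neutrophil production. Csf2 read 0.46, 0.59, 0.62, -0.24 and -0.56 in untreated and 4.43 and 4.49 in LPS-treated wild-type cultures. In the knockout-labelled cultures it ranged from -1.05 to -0.41 (median -0.84) untreated and read 0.79, 0.12, 0.32 and -0.05 with LPS. The highest LPS-treated knockout-labelled culture thus lay close to the untreated wild-type ones. A 19.5-fold rise stood against a 2.13-fold rise, and the difference of -3.19 ± 0.32 (95% interval -3.84 to -2.55; limma adjusted p = 4.33e-08) makes the response 9.15-fold smaller.

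For Csf3 the wild-type cultures read -0.26, 0.16, 0.31, -0.01 and -0.16 untreated and 4.18 and 4.25 with LPS. Knockout-labelled cultures ranged from -2.22 to -1.01 (median -1.54) untreated and read 0.66, -0.03, 0.01 and -1.01 with LPS, the most scattered of the LPS groups among these genes. The difference was -2.75 ± 0.47 (limma adjusted p = 0.00116). Of the 26 measured genes of the list of colony-stimulating factors and cytokines these 2 were lower, against 0.148% of all genes, and 0 were higher. The median of the list was -0.03. Il23a, a subunit of interleukin-23, gave -0.58 ± 0.18 (limma adjusted p = 0.431) and the growth factor Ereg -0.84 ± 0.25 (0.422). Quantile normalisation took Csf2 to -0.77 and Csf3 to -0.11, both with an adjusted p of 1 in limma, and without the arrays of high 18S signal Csf3 gave -2.30 (0.446).

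Subunits, targets and feedback genes of NF-kB formed the next list, with 4 of 21 measured genes lower, 0 higher and a median of -0.21. Over all genes 0.148% were lower. Zc3h12a encodes regnase-1, an RNase that degrades cytokine transcripts, and read -1.93, -1.92, -1.69, -2.26 and -2.44 in untreated wild-type cultures and -0.40 in both with LPS. The knockout-labelled cultures ranged from -0.24 to 0.25 (median -0.10) untreated and read 0.19, 0.40, 0.36 and 0.33 with LPS, above the wild-type ones in both conditions. Its rise of 1.65 ± 0.14 in wild-type against 0.39 ± 0.10 gave a difference of -1.26 ± 0.17 (limma adjusted p = 3.23e-05).

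Nfkbiz, the gene of the nuclear coactivator IkB-zeta, rose by 1.59 ± 0.14 and 0.56 ± 0.10 and differed by -1.03 ± 0.17 (limma adjusted p = 0.000815). Ikbke, the gene of IkB kinase epsilon, read 0.49 and 0.50 in the LPS-treated wild-type cultures, above the 0.10, 0.05, 0.22 and -0.03 of the knockout-labelled ones, although untreated wild-type cultures (-0.87 to -0.29) were the lower. It was the only one of the 16 genes with a lower response and a higher untreated value in knockout-labelled cultures that was lower there under LPS. Nfkbia, the gene of the inhibitor IkB-alpha, showed the smallest difference of the 39, -0.59 ± 0.12 (limma adjusted p = 0.0199). The test of Zc3h12a, Nfkbiz, Ikbke and Nfkbia was not passed after quantile normalisation (adjusted p from 0.0635 to 1 in limma), and Nfkbia was not called without LPS wild-type culture 1 or 2 or LPS knockout-labelled culture 2, where it lay between -0.64 and -0.53.

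Acute phase and antimicrobial genes were lower for 2 of 19 measured, against 0.148% of all genes, with a median of -0.39 over the list. Camp, which encodes the cathelicidin peptide, rose by 1.80 ± 0.13 in wild-type and by 0.90 ± 0.09 in knockout-labelled cultures, a difference of -0.90 ± 0.16 (limma adjusted p = 0.00154). Its values did not overlap between genotypes with LPS, at -0.65 and -0.57 against 0.88, 0.93, 0.70 and 0.82, since the knockout-labelled cultures began 2.34 higher. Lcn2, whose product withholds iron from bacteria by binding siderophores, read -3.12, -2.50 and -2.10 in untreated wild-type cultures of set a but -4.70 and -4.67 in set b, then -0.49 and -0.76 with LPS. In knockout-labelled cultures it lay between -0.27 and 0.08 untreated and between 0.24 and 0.41 with LPS.

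The Lcn2 difference of -2.39 ± 0.54 only just passed (limma adjusted p = 0.0415), and it was called in 4 of the 19 fits that left out 1 array. Stfa3, of the stefin family of cysteine protease inhibitors, gave -1.62 ± 0.40 (limma adjusted p = 0.118). Its relative Stfa2l1, chosen for mention after its value was seen, rose by 0.68 ± 0.10 in wild-type cultures alone by these tests and differed by -0.71 ± 0.13 (limma adjusted p = 0.00277). Probe sets of this family of near-identical genes may not tell its members apart. Camp changed sign under quantile normalisation, to 0.36 (adjusted p = 1 in limma).

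Other chemokines had 1 lower member in each of 2 lists, against 0.148% of all genes. Cxcl16, a transmembrane chemokine that binds CXCR6, was the lower one of 8 CXCR3 ligands and other CXC chemokines, whose median was -0.29. It read -0.10 and -0.52 in wild-type and 0.59, 0.41, 0.63 and 0.69 in knockout-labelled LPS cultures, after rises of 2.37 ± 0.18 and 1.19 ± 0.13. The difference of -1.18 ± 0.22 (limma adjusted p = 0.00423) became 0.18 (adjusted p = 1) under quantile normalisation. Of the 16 CC chemokines, with a median of -0.08, Ccl7, a monocyte attractant, differed by -0.80 ± 0.16 (limma adjusted p = 0.0102). Ccl20, which attracts cells with CCR6, had a larger estimate of -1.82 ± 0.64 that did not pass (limma adjusted p = 0.86), with LPS values of 1.92 and 1.58 against 0.48, -0.66, 0.64 and -0.90.

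Genes of lipid and sugar metabolism moved in both directions. Of 16 genes of fatty acid binding, uptake and storage, 1 was lower and 1 higher, against 0.148% and 0.066% of all genes. The median of the list was -0.04. Pparg, the nuclear receptor that directs adipocyte formation, read 0.71, 0.37, 0.63, 0.42 and 0.43 in untreated and 1.96 and 1.39 in LPS-treated wild-type cultures. In the knockout-labelled cultures it ranged from -0.07 to 0.39 (median 0.16) and then read -0.03, -0.29, -0.23 and -0.34, so that only the LPS-treated groups were far apart. The difference was -1.53 ± 0.28 (limma adjusted p = 0.00277). Fabp4, a fatty acid binding protein of adipocytes, macrophages and capillary endothelium, moved the other way, with 1.80, 1.69, 1.75, 1.48 and 1.48 in untreated and -0.03 and -0.12 in LPS-treated wild-type cultures.

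The knockout-labelled cultures scattered widely for Fabp4, from -1.23 to 0.33 untreated and at 0.41, -0.38, 0.31 and -0.62 with LPS, and overlapped the wild-type ones only with LPS. Its difference was 2.04 ± 0.41 (limma adjusted p = 0.013), and the gap under LPS was 0.01 (95% interval -0.69 to 0.71). Acot1, an acyl-CoA thioesterase, was the gene whose responses passed the test in opposite directions: it read 0.80, 1.11, 1.05, 1.34 and 1.31 and then 1.92 and 1.82 in wild-type cultures, but -0.19 to 0.70 (median 0.08) and then -0.64, -0.49, -0.58 and -0.38 in knockout-labelled ones. A rise of 0.75 ± 0.18 stood against a fall by 0.67, and the difference was -1.42 ± 0.22 (limma adjusted p = 0.000321). Fbp1, a gluconeogenic enzyme, differed by -1.81 ± 0.31 (limma adjusted p = 0.00113), with LPS values of 3.82 and 3.75 in wild-type against -0.28 to 0.54. It gave -0.76 after quantile normalisation and -1.6 without the arrays of high 18S signal, and passed in neither (limma adjusted p = 1 and 0.361).

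Transporters, channels and signalling genes made up much of the remainder. Abca13, a member of the ABC transporter family, read -0.04, 0.09, 0.11, 0.15 and -0.02 untreated and 1.99 and 2.11 with LPS in wild-type cultures, while all 12 knockout-labelled cultures lay between -0.26 and 0.17. Its difference of -1.98 ± 0.31 (limma adjusted p = 0.000338) set a 3.98-fold wild-type rise against a response of 0.01 ± 0.18. Slc25a18, a mitochondrial glutamate carrier, showed the same form with LPS values of 2.10 and 1.19 against -0.28 to 0.23 and a difference of -1.47 ± 0.26. Fam184b read 1.67 and 0.38 in the LPS-treated wild-type cultures, and without the first of them its difference of -1.58 ± 0.35 became -0.94 and was not called. Without that culture Pparg, Slc25a18 and Cxcl16 were not called either, at -1.24, -1.02 and -0.97.

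Lcp2, an adaptor of immune receptor signalling, resembled Pf4: wild-type cultures were higher untreated (0.94 to 2.06) and rose to 3.53 and 3.54, while knockout-labelled ones stayed between -0.74 and 0.09, a difference of -1.74 ± 0.29. Lcp2 gave -0.68 after quantile normalisation and -1.36 without the arrays of high 18S signal, and passed in neither (limma adjusted p = 1 and 0.769). Kcnq5, a potassium channel, resembled Cxcl2, with a difference of -1.23 ± 0.23 and LPS values of 0.08 and 0.13 against 0.16 to 0.38. Dhrs3, which reduces retinal to retinol, rose by 0.81 ± 0.18 in wild-type cultures and differed by -1.18 ± 0.22. Named after their values were seen, the iron transporter gene Slc11a2, the lipid phosphatase gene Plpp3 and 1110008P14Rik differed by -0.76 ± 0.17, -0.73 ± 0.16 and -0.87 ± 0.15.

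The starting level separated the 27 genes with a lower difference into 3 classes. In 16 the untreated knockout-labelled cultures were already higher, among them Cxcl1, Cxcl2, Cxcl3, Cxcl16, Lcn2, Zc3h12a and Nfkbiz. Under LPS 9 of these 16 no longer differed past the threshold between genotypes, 6 were still higher in the knockout-labelled cultures and 1, Ikbke, was lower. In 6 (Csf2, Csf3, Pf4, Fbp1, Lcp2 and Acot1) the knockout-labelled cultures were lower without treatment and lower under LPS. The last 5 (Abca13, Fam184b, Pparg, Slc25a18 and Stfa2l1) showed no untreated difference past the threshold and were lower under LPS. These gaps are parts of the same difference and use the same arrays, so the classes are a description. Centred values carry no level, so whether the signal of the 16 genes neared an upper limit in the knockout-labelled cultures could not be checked. Over all genes 21.3% were higher and 16.3% lower in untreated knockout-labelled cultures, and 13.4% and 10.6% (24% in all) under LPS.

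All 12 genes with a higher difference were lower in untreated knockout-labelled than in untreated wild-type cultures, with gaps from -3.98 to -1.49, and all but Fabp4 were still lower under LPS. Cldn5, which encodes the tight-junction protein claudin-5 of endothelium, read 3.75, 3.61, 3.52, 3.21 and 3.33 in untreated wild-type cultures and 1.57 and 0.59 with LPS. In knockout-labelled cultures it ranged from -0.83 to 0.26 (median -0.21) untreated and read -0.58, -0.29, -0.24 and -0.22 with LPS. A fall by 2.40 in wild-type against a response of -0.13 ± 0.18 gave a difference of 2.27 ± 0.31 (95% interval 1.64 to 2.90; limma adjusted p = 3.23e-05). Ramp2, which pairs with the receptor for the vascular peptide adrenomedullin, differed by 0.97 ± 0.21 (limma adjusted p = 0.0255).

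Cldn5 and Ramp2 were the only 2 of the 20 endothelial markers to pass, against 0.066% of all genes with a higher difference. The list had a median difference of 0.27. In wild-type cultures 3 of the 20 fell with LPS and 0 rose, with a median response of -0.48, against 0.456% of all genes that fell. In knockout-labelled cultures 0 of the 20 passed and the median was -0.13, against 0.819% of all genes that fell. The knockout-labelled sets differed in some of these markers. Untreated, Emcn lay between -0.51 and 0.53 in set a and between -5.27 and -4.36 in set b. Pecam1 and Cdh5 also split by set, whereas Cldn5 and Kdr overlapped. The fit held no term for the set, so this spread entered the test and the count of 0 is a weak reading. Ptprb, an endothelial phosphatase, fell by 1.34 in wild-type cultures and its difference was 0.94 ± 0.35 (limma adjusted p = 1). In bulk cultures fewer cells of a type and less RNA per cell cannot be told apart. Of the 86 measured markers of macrophages, neutrophils and mast cells, lymphocytes, pericytes and smooth muscle, adipocytes, chondrocytes and tendon, and fibroblasts, 0 passed in limma and 2 had an unadjusted p under 0.05. Over all 18194 genes 0.214% passed and 541 had an unadjusted p under 0.05. The counts for the 86 lie near those shares and are no result about these markers.

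The remaining genes with a higher difference code for receptors, peptides and matrix. Sstr2, a somatostatin receptor, read 3.01, 2.76, 2.90, 2.86 and 2.79 and then 1.34 and 1.45 with LPS in wild-type cultures, and between -0.43 and 0.07 in all 12 knockout-labelled ones. Its difference was 1.51 ± 0.17 (limma adjusted p = 4.12e-07), the smallest adjusted p of the 12. Nmb, the gene of the peptide neuromedin B, fell by 1.68 in wild-type cultures, from values of 2.56 to 3.16 to values of 1.34 and 0.92, and differed by 1.56 ± 0.24 (limma adjusted p = 0.000338). Tm6sf1, a gene of a transmembrane protein, fell by 1.25 and differed by 1.26 ± 0.17 (limma adjusted p = 2.25e-05).

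Col18a1, which encodes the basement membrane collagen that yields endostatin, was the exception in form. Wild-type cultures read 2.39, 2.03, 2.13, 1.63 and 1.62 untreated and 1.85 and 1.51 with LPS, an overlap, and their response was -0.28 ± 0.17 (limma adjusted p = 1). Knockout-labelled cultures ranged from -1.13 to -0.70 (median -0.85) untreated and read -0.21, -0.27, 0.07 and -0.02 with LPS, with no overlap, and rose by 0.75 ± 0.13. The difference was 1.03 ± 0.21 (limma adjusted p = 0.0159). The others were Sprr1a, a cornified envelope gene, at 1.33 ± 0.22, the C-type lectin gene Clec1a at 1.32 ± 0.23, Exoc3l2 at 1.19 ± 0.25, Trp53i11 at 0.90 ± 0.20 and Gprc5b, an orphan receptor, at 0.83 ± 0.14. After quantile normalisation none of the 12 passed, with differences of 0.26 to 1.52, and Cldn5 and Nmb gave 1.72 and 1.29 without the arrays of high 18S signal (adjusted p = 0.0849 and 0.391 in limma).

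**Figure D4:**
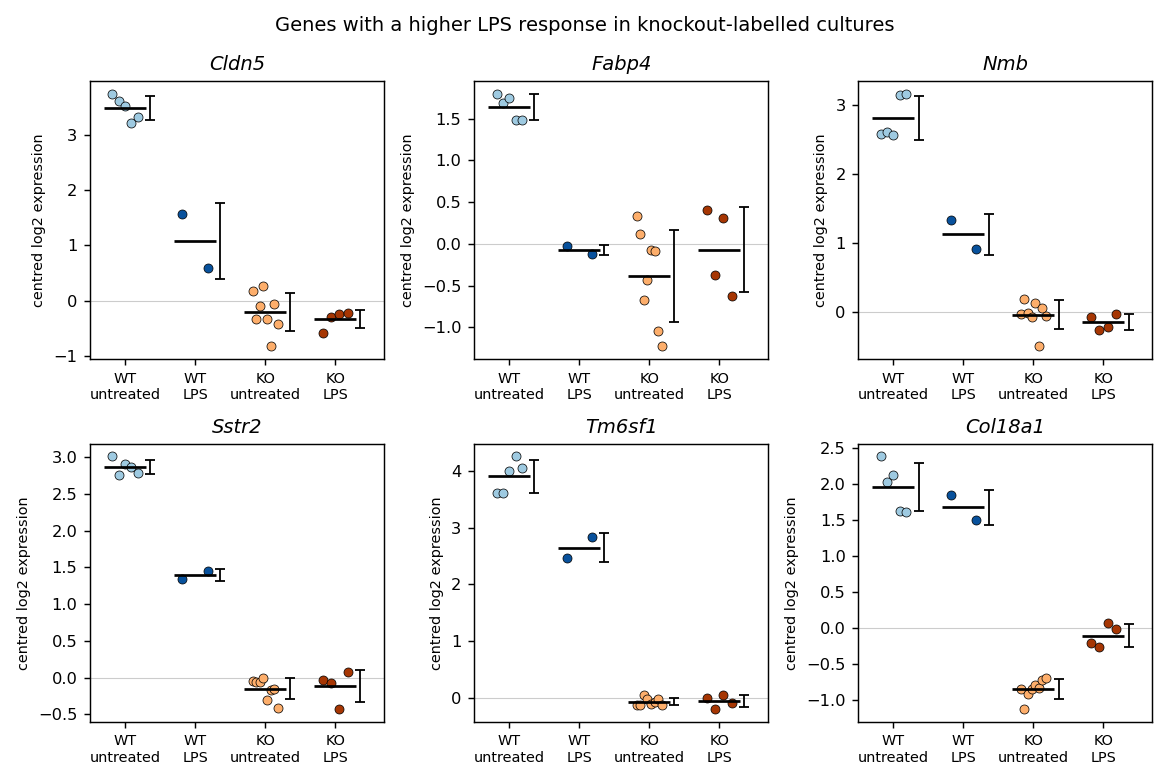
Centred log2 expression of 6 genes with a higher LPS response in knockout-labelled cultures, 1 point per culture, with the group mean as a line and ±1 SD as the bar beside it. In 5 of the panels the wild-type values are lower with LPS while the knockout-labelled ones overlap, and for Col18a1 the knockout-labelled values are higher with LPS, at -0.27 or above against -0.70 or below.

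Several strongly responding genes did not differ past the threshold. Ccl5, Il6 and Nos2 were picked after their values were seen. Ccl5, a T cell and monocyte attractant, rose by 3.54 ± 0.63 in wild-type and 4.31 ± 0.46 in knockout-labelled cultures, and the difference of 0.77 ± 0.78 had a wide 95% interval of -0.81 to 2.35. Il6, the gene of interleukin-6, rose by 2.50 ± 0.50 and 2.09 ± 0.37, with a difference of -0.41 ± 0.62 (95% interval -1.68 to 0.86). Nos2, the inducible nitric oxide synthase, rose by 1.66 ± 0.31 and 2.42 ± 0.22, with a difference of 0.76 ± 0.38 (95% interval -0.01 to 1.53). Each of these intervals takes in both equal responses and responses that differ by more than 1.5-fold, so neither is shown.

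The receptor genes gave no difference past the threshold. Tlr4 differed by -0.11 ± 0.51 (95% interval -1.15 to 0.93), Ly96, the gene of MD-2, by -0.20 ± 0.31 and Cd14 by 0.11 ± 0.26 (95% interval -0.42 to 0.64). Cd14 was lower in the knockout-labelled cultures both untreated, by -1.28 ± 0.14, and under LPS, by -1.18 ± 0.22. Of the 19 measured genes of the receptor complex and its adaptors 0 passed in limma and 1 had an unadjusted p under 0.05, with a median of -0.07. Over all genes 0.214% passed, so 0 of 19 lies near that share. Tlr2, the receptor for bacterial lipopeptides, came nearest, with untreated values of -1.85 to -1.32 and LPS values of -0.22 and -0.54 in wild-type cultures, against -0.27 to 0.53 and then 0.26, 0.16, 0.53 and 0.28. Its difference was -0.95 ± 0.24 (limma adjusted p = 0.141). With the culture set as a block it was -1.0 and passed (limma adjusted p = 4.27e-05). The sets were read from these same expression values, so the block is no independent support. Within the 4 combinations of a wild-type and a knockout-labelled set, each with a lone LPS-treated wild-type culture, the Tlr2 difference lay between -1.08 and -0.89.

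The lists that follow had 0 members past the threshold in limma, and between 0 and 3 at an unadjusted p under 0.05. With 0.214% of all genes called, 0 in lists this short lies near the share over all genes. Interferon-stimulated genes, the second branch of TLR4 signalling, had a median difference of 0.11 over 31 genes, 0 of them at an unadjusted p under 0.05. Here 1 rose in wild-type and 3 in knockout-labelled cultures, and the member with the smallest p, the RNA sensor regulator gene Dhx58, gave 0.43 ± 0.30. Feedback regulators of the LPS response had a median of -0.02 over 20 genes, with Ier3 at -0.53 ± 0.17 (limma adjusted p = 0.539). Enzymes of prostaglandin, nitric oxide, arginine and itaconate metabolism had a median of -0.02 over 15, and the arginase gene Arg2 came close to the threshold with -1.67 ± 0.40 (limma adjusted p = 0.0826).

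Matrix proteases and their inhibitors had a median of -0.01 over 20 genes, with the stromelysin gene Mmp10 at -0.79 ± 0.25 (limma adjusted p = 0.536). Genes of hyaluronan, the partner of TSG-6, had a median of 0.16 over 26, with the hyaluronan scavenger receptor gene Stab2 at 1.61 ± 0.56 (limma adjusted p = 0.797). Its fall by 1.76 was in the wild-type cultures, the ones with the high endothelial markers. The part of endothelial cells in that fall was not tested. Stab2 gave 1.46 with the culture set as a block and passed (limma adjusted p = 0.00013), but the sets were read from these same expression values. Within the 4 combinations of culture sets, each with a lone LPS-treated wild-type culture, it gave 1.41 to 1.53. Hypoxia and glycolysis genes had a median of -0.15 over 22, with the mitophagy gene Bnip3 at -0.62 ± 0.19. Immediate early transcription factors had a median of -0.15 over 19, with Cebpd at -0.59 ± 0.15 (limma adjusted p = 0.128). Egr1 and Egr2 fell in the knockout-labelled cultures, by 1.28 and 1.18, with differences of -0.79 ± 0.29 and -0.87 ± 0.27 that did not pass. The 16 measured neighbours of Tnfaip6 on chromosome 2 had a median of 0.00.

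Whether the genotype difference was the same under LPS as under TNFa, a cytokine that also activates NF-kB, was tested directly with 4 and 2 TNFa-treated cultures (5 ng/ml, 12 h). In this comparison the untreated cultures cancel. It called 21 genes (0.115%), of which 17 (0.0934%) were lower and 4 (0.022%) higher under LPS than under TNFa. The lowest was Csf3, which under TNFa read 2.27 and 1.11 in wild-type and 2.90, 2.06, 1.76 and 1.18 in knockout-labelled cultures, an overlap that LPS did not show. Its contrast was -4.59 ± 0.55 (limma adjusted p = 5.04e-06). Csf2 gave -3.95 ± 0.38 (limma adjusted p = 5.29e-08), with 3.16 and 2.29 against 2.66, 2.43, 2.43 and 2.50 under TNFa, again overlapping.

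Arg2 (-2.56 ± 0.48) and Icosl (-2.40 ± 0.29), the gene of a T cell costimulator, were next. For Icosl the wild-type cultures read 1.01 and 1.11 with LPS and 1.03 and 0.68 with TNFa, while the knockout-labelled ones lay between 0.08 and 0.68 with LPS and between 2.06 and 2.85 with TNFa. The 4 genes in the other direction were Btbd11 (1.72 ± 0.25), Mmp10 (1.5 ± 0.30), the ubiquitin-like modifier gene Ubd (1.5 ± 0.27) and Shroom2 (0.99 ± 0.22), none of which passed the test in the LPS response itself. For Mmp10 the wild-type cultures read 2.41 and 3.42 with TNFa, against 0.22 to 0.37. Among the genes with a lower LPS response, Cxcl2 (-2.33 ± 0.27), Fbp1 (-2.17 ± 0.36), Zc3h12a (-1.28 ± 0.20) and Nfkbiz (-1.18 ± 0.20) also passed this test, and Cxcl3 (limma adjusted p = 0.06), Pf4 (0.06) and Cxcl1 (0.51) did not. Without the arrays of high 18S signal 4 genes were called, with Csf3 at -3.91 (limma adjusted p = 0.127), and of the 8 genes lowest or highest here Csf2 and Ubd still passed. With the compared groups alone 8 were called, among them Csf2, Icosl and Btbd11, and Csf3 just missed (limma adjusted p = 0.056). Leaving out 1 array moved the count of 21 to between 14 and 36, the lowest without LPS wild-type culture 2 and the highest without TNFa wild-type culture 1.

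The difference was also taken within each of the 4 combinations of a wild-type and a knockout-labelled culture set, where a lone LPS-treated wild-type culture had to borrow its spread from the remaining groups. All 39 genes kept their sign in all 4, as against 72.2% to 75% of all genes, though the arrays are those that chose them. Between 19 and 25 of the 39 passed the test within a combination. Csf2 ranged from -3.94 to -2.64, Cxcl2 from -3.30 to -2.71, Pf4 from -2.91 to -2.12 and Cldn5 from 1.61 to 2.86, while Lcn2 ranged from -3.60 to -1.60. With the set as a block 103 genes passed, and all 39 were among them. The sets were read from the same expression values that were tested, so these calls are no independent support. Besides Tlr2 and Stab2, the genes kept by the naming rule or its lists that passed with that block but not without it were Cx3cl1, Ereg, Arg2, Mmp13, Stfa3, Saa3, Angptl4, Fabp5 and Cebpd.

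Without the arrays of high 18S signal, which left culture 1 as the only LPS-treated wild-type one, 20 genes passed and 16 of the 39 were among them. These 16 were Csf2 (-2.70), Cxcl2 (-2.64), Cxcl3 (-2.80), Pf4 (-2.09), Abca13 (-1.83), Fam184b, Pparg, Slc25a18, Acot1, Kcnq5, Nfkbiz and Slc11a2 among the lower, and Fabp4, Tm6sf1, Clec1a and Sstr2 among the higher. Leaving out a single array gave between 23 and 42 genes, with 23 when LPS wild-type culture 2 was left out and 27 without culture 1. Of the 39, 19 passed whichever array was left out. Pparg, Slc25a18 and Cxcl16 were lost only without LPS wild-type culture 1. Dhrs3 (-1.32 to -1.05 over the arrays left out), Clec1a (1.19 to 1.45), Ccl7 (-0.93 to -0.68), Camp (-0.94 to -0.86), 1110008P14Rik (-0.95 to -0.83) and Stfa2l1 (-0.80 to -0.62) were lost only without LPS wild-type culture 2. Kcnq5 (-1.31 to -1.08) and Fabp4 (1.88 to 2.22) were lost without either, and Col18a1 (0.86 to 1.20) without LPS wild-type culture 2 or LPS knockout-labelled culture 3. Less stable were Ramp2 and Exoc3l2, called in 14 of the 19 fits each, Fam184b in 11, Slc11a2 and Plpp3 in 9 each, Trp53i11 in 8 and Lcn2 in 4. Some calls also needed arrays outside the comparison. When the compared groups were fitted alone, Fabp4, Col18a1, Ramp2, Lcn2, Nfkbia, Ccl7, Fam184b, Trp53i11, Slc11a2 and Plpp3 were not called.

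Other probe sets were present for 18 of the 39 genes, and all 30 of them had the sign of the one used, but 6 of the 30 did not reach 0.25 of its difference and 5 passed the test over all 34958 probe sets. Values near 0 were found for 1110008P14Rik (-0.02), Exoc3l2 (0.04) and Fam184b (-0.07 and -0.10). The other probe sets of Fabp4 gave 0.40, 0.22 and 1.89, against the 2.04 of the one used. Of the probe sets used, 34 of 39 passed over all probe sets.

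**Figure D5:**
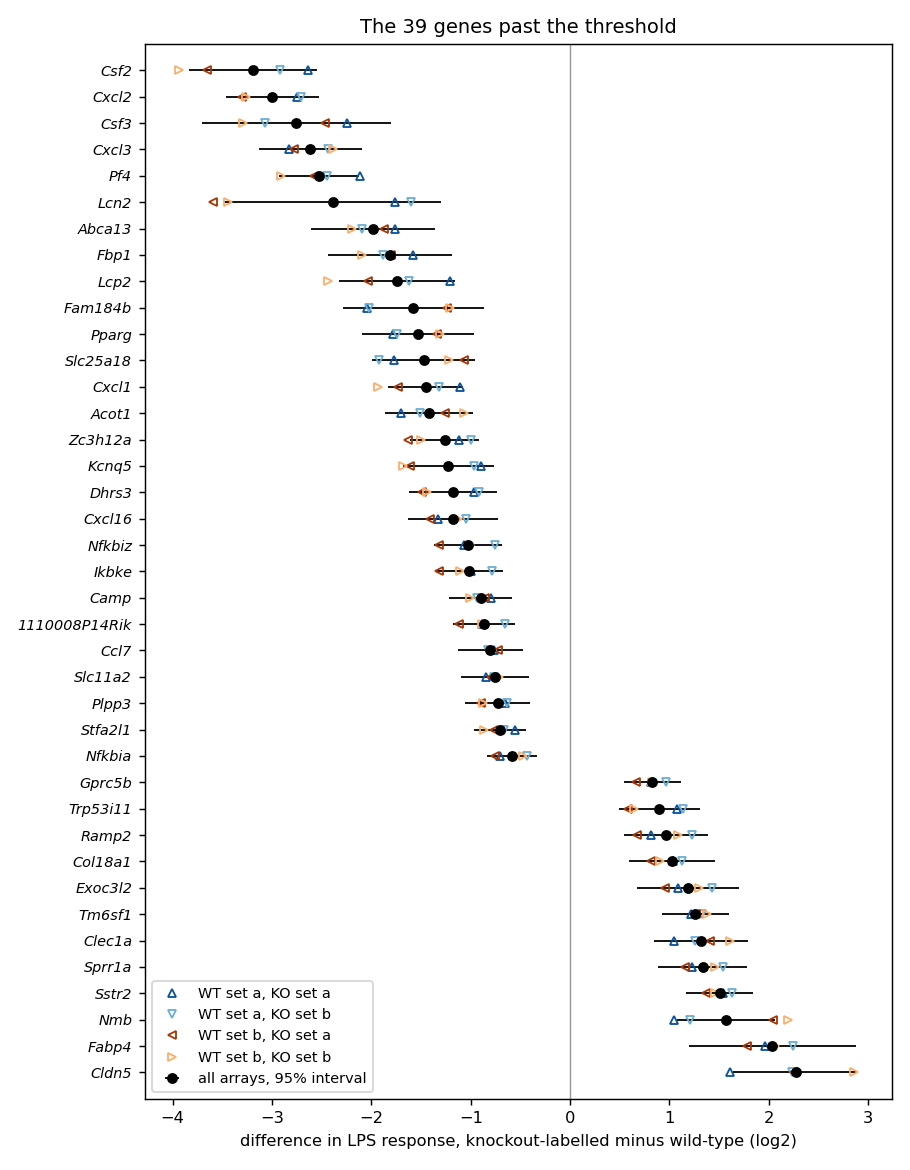
Difference in the LPS response, knockout-labelled minus wild-type, on the log2 scale for the 39 genes that passed the test. Filled points with bars are the estimates from all arrays with 95% intervals, and open triangles are the estimates within each combination of culture sets, all of which lie on the same side of 0 as the filled point.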

How the data were processed

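Expression was read on 42 one-colour Affymetrix arrays, 1 per culture. The authors deposited log2 values of 45101 probe sets. The submitters' processing notes name RMA and give no version. Every probe set has a median of 0 over the 42 arrays, so the deposited log2 values carry no level and a filter on dim probe sets could not be made. Base 2 was inferred from their range, and positive was read as higher. The number of arrays, not depth, limits precision.

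The 34958 probe sets that map to a single gene were used, and 932 with several genes and 9211 without a gene were left out. The probe set with the largest SD stood for each of 18194 genes, and those correlated above 0.7 with the 18S probe set (387) were avoided where another existed. All 42 arrays were fitted with a mean for each of 12 groups in limma 3.58.1 (R 4.3.3; 30 residual and 4.23 prior degrees of freedom). P-values were adjusted by Benjamini and Hochberg within a comparison, with a threshold of 0.05. Differences are of group means, ± SE. Simulated data, in which 66 or 67 genes of known fold were planted per size, served to test the fit. Culture sets were read from probe sets whose arrays of a genotype split into 2 blocks at least 1 log2 unit apart, with every condition in both blocks. The commonest such split was taken. It was seen in 33 of 33 such probe sets in wild-type and 12 of 13 in knockout-labelled arrays. That the sets span the treatments was thus required by the rule. A high 18S signal means a value above 1.

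Named genes were the 20 lowest and 12 highest differences past the threshold, the 4 members of each list with the smallest adjusted p, Tnfaip6, the receptor genes Tlr4, Cd14 and Ly96, and 8 genes of the comparison with TNFa; others are said to have been chosen later. The genes, the 24 lists and the tests were chosen with earlier results of these data known. Promoters are from RefSeq (GRCm38.p6). Other scalings, probe set rules, variance models, blocks and leaving out arrays were tried.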

Additional observations from a re-analysis of the deposited data

Results flagged for a closer look

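In 8 of the 138 groups tested over 46 genes, 1 culture lay far from the rest, and chance alone marks about 1 group in 20. Untreated wild-type culture 3 accounted for 4 of them. It read 2.19 for Ramp2 (others 1.73 to 1.85), 1.93 for Clec1a (2.36 to 2.50), -1.22 for Il6 (-0.79 to -0.62) and -1.37 for 1110008P14Rik (-1.85 to -1.76). Untreated wild-type culture 1 read 1.76 for Pf4 (others 2.15 to 2.27). Among knockout-labelled cultures, untreated culture 6 read -0.49 for Nmb (others -0.07 to 0.19), untreated culture 7 read -1.01 for Tlr4 (-0.18 to 0.41), and LPS culture 4 read 0.20 for Dhrs3 (0.00 to 0.04).

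The 39 genes whose LPS response differed between the genotypes, by limma's test of the difference itself, are given again with their values. Chemokines and colony-stimulating factors were lower by -3.19 (Csf2), -3.0 (Cxcl2), -2.75 (Csf3), -2.62 (Cxcl3), -2.53 (Pf4), -1.45 (Cxcl1), -1.18 (Cxcl16) and -0.80 (Ccl7). NF-kB regulators were lower by -1.26 (Zc3h12a), -1.03 (Nfkbiz), -1.02 (Ikbke) and -0.59 (Nfkbia). Antimicrobial and stefin genes gave -2.39 (Lcn2), -0.90 (Camp) and -0.71 (Stfa2l1). Genes of metabolism, transport and signalling gave -1.98 (Abca13), -1.81 (Fbp1), -1.74 (Lcp2), -1.53 (Pparg), -1.47 (Slc25a18), -1.42 (Acot1), -1.23 (Kcnq5), -1.18 (Dhrs3), -0.76 (Slc11a2) and -0.73 (Plpp3). Fam184b gave -1.58 and 1110008P14Rik -0.87. The higher responses were 2.27 (Cldn5), 2.04 (Fabp4), 1.56 (Nmb), 1.51 (Sstr2), 1.33 (Sprr1a), 1.32 (Clec1a), 1.26 (Tm6sf1), 1.19 (Exoc3l2), 1.03 (Col18a1), 0.97 (Ramp2), 0.90 (Trp53i11) and 0.83 (Gprc5b).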

How the results depend on the processing

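Of the 39 genes, 37 kept the sign of their difference in every setting tried, and Cxcl16 (0.18) and Camp (0.36) reversed after quantile normalisation, with an adjusted p of 1. The genotype difference in the LPS response was called for 39 genes, and for 7 after quantile normalisation, 20 without the arrays of high 18S signal, 103 with a block for the culture set, 8 with a block for the replicate number, and 23 to 42 with 1 array left out. In the other settings the count was within 1.5 times of 39, though not always with the same genes. The compared groups alone gave 36, of which 29 were among the 39. Cyclic loess gave 43 (33 shared), array medians subtracted 36 (36 shared) and the mean of a gene's probe sets 35 (31 shared). The more variable genes gave 43 (39 shared), robust eBayes 39 (39 shared) and array weights 55 (38 shared). The difference from the TNFa response (21 genes) gave 8 with the compared groups alone, 53 after quantile normalisation, 40 with the mean of probe sets, 32 among the more variable genes, 4 without high 18S signal, 114 with a block for the culture set and 14 to 36 with 1 array left out. The wild-type LPS response (217) gave 39 after quantile normalisation, 339 with array weights, 118 without high 18S signal, 523 with the culture-set block, 76 with the replicate block and 93 to 206 with 1 array left out. The knockout-labelled LPS response (326) gave 592, 525, 134, 720, 62 and 200 to 328 under the same settings. The genotype difference in untreated cultures (6832) gave 6340 to 6798 with 1 array left out. Under LPS (4363) it gave 1865 with cyclic loess, 2262 without high 18S signal and 2560 to 4184 with 1 array left out. The cause of these changes was not tested. The replicate numbers did not pair the cultures: LPS and untreated cultures of 1 number correlated in their deviations from the group means at 0.14 and -0.48 (wild-type) and 0.42, -0.02, -0.25 and -0.26 (knockout-labelled). Over the named genes, 4426 values kept their direction and side of the threshold, 341 no longer passed, 24 newly passed and 2 reversed. The 2 LPS-treated wild-type cultures, the centred values and the unnamed sets limit every result, and differences under 2-fold are often missed.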
